A study of Mus musculus with 2 samples.

Results

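The 95 genes described here carry symbols of CD antigens and of related leukocyte surface families, among 11484 genes measured on the array. They were chosen by symbol alone: names that begin with Cd and a digit, Ly and a digit, Fcgr, Clec, Siglec, Lair, Ms4a, Klr or Lilr, and Pecam1. Fcgr3, Cd2ap and Cd2bp2, which are also measured, were taken out, and Lair and Lilr genes gave no member. Of 13989 probes 100 read a member, and 91 members had 1 probe and 4 had 2 or more. The symbol does not make every member a surface antigen of leukocytes. Cd3eap encodes a subunit of RNA polymerase I, Clec11a, Clec3a and Clec3b encode secreted proteins, and Clec16a encodes an endosomal protein.

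Both samples were mouse cells labelled as embryonic, of the strain C57/ICR, on a 1-colour array. The parental cells were at passage 1 in medium with fetal bovine serum (FBS), and the small-molecule-generated stem cells were at passage 5 in embryonic stem (ES) cell medium. The labels name neither the small molecule nor its dose, and passage and medium changed together with the treatment. The comparison asks how the profile of the generated cells departs from that of the cells they came from. The design text speaks of 3 replicates per sample, but each sample had a single column of values. Whether a column holds the reading of 1 array or a mean over replicates is not known. Either way groups could not be tested against each other and no value has a replicate error. The number of arrays, which is not known, limits the precision.

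CD numbers were assigned to molecules that antibodies recognise on white blood cells, and they group proteins of unlike function. Some, such as the CD3 chains of the T cell receptor complex or the CD79 chains of the B cell receptor, are made almost only by lymphocytes. Others, such as the tetraspanins and the adhesion molecules, lie on many cell types, including fibroblasts and pluripotent cells. Siglecs and many C-type lectins bind sugars. Many of these proteins, like the lectin-like receptors of natural killer (NK) cells, tune the activation of immune cells.

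Intensities are the authors' normalised values in arbitrary units on a linear scale. Their median was 304 in the parental and 305 in the generated cells. The 25th percentile of each column, 93.8 and 93.4, served as a floor, and members that stayed under it in both samples are called dim below, without a fold. A single value under the floor was set to the floor, which makes the fold a lower bound. A difference was counted at 2-fold or more. As a guide to precision, in 612 genes read by a pair of probes the SD of 1 probe's log2 difference around its gene was 1.05, or 2.07-fold. This SD was taken on values as deposited, without replacement by the floor. Differences near 2-fold in a member with 1 probe are therefore within probe error.

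Of the 95 members, 33 (34.7%) were dim in both samples, against 15.0% of all genes. The other 62 comprised 46 above the floor in both samples, 11 in the parental cells only and 5 in the generated cells only. In the generated cells 21 members were lower by 2-fold or more and 8 were higher. The lower ones were 33.9% and the higher ones 12.9% of the 62. Over the whole array 9766 genes passed the floor in 1 sample or more, and 20.8% of them were lower and 20.5% higher. At 4-fold 11 of the 62 members were lower and 1 was higher. Of the 9766 genes 894 (9.15%) were lower and 617 (6.32%) higher at 4-fold. The median log2 difference of the 62 was -0.15 and that of all genes 0.10, and the members' value hung on the floor. It was 0.049 with the floor at the 10th percentile and -0.51 with the floor at the median, where all genes gave 0.085 and 0.10. In 6 of the 95 members both values lay above the 75th percentile of their column (1368 and 1372), where 2191 of 11484 genes (19.1%) did. These 6 were Cd63, Cd151, Cd164, Cd99, Cd24a and Cd320.

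**Figure D1:**
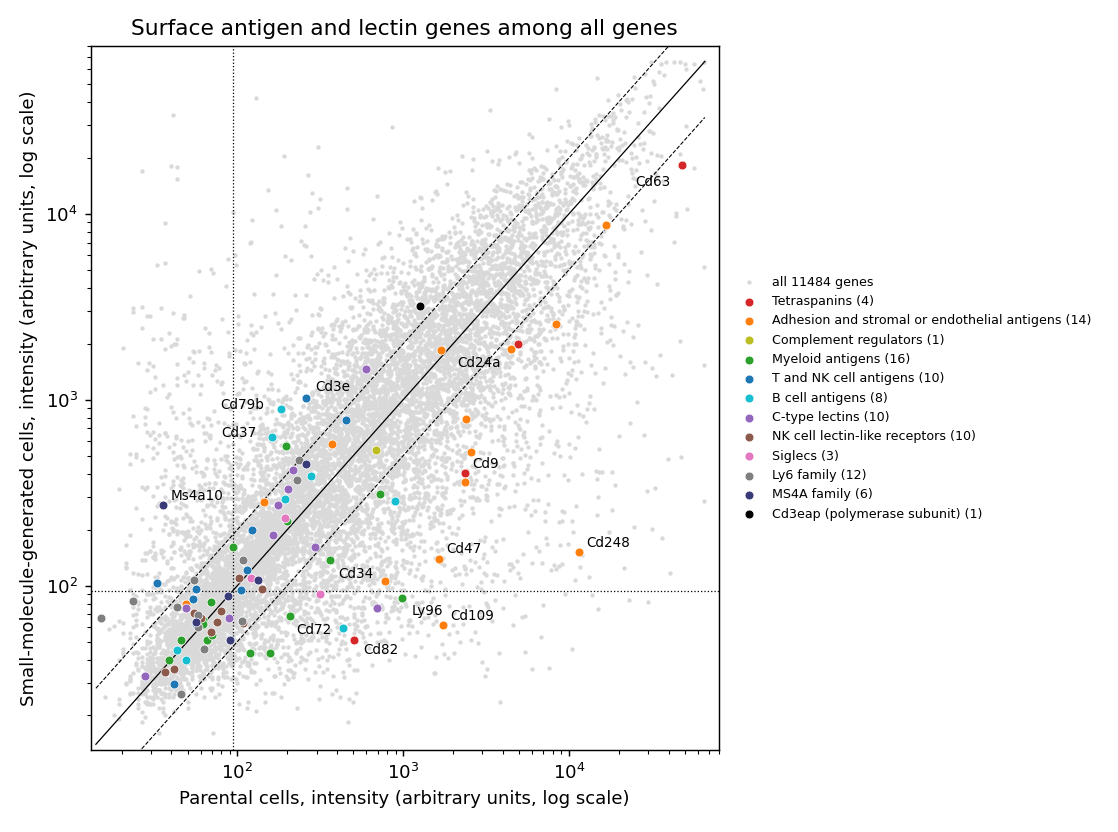
Intensity of each gene in the parental cells (x axis) and the small-molecule-generated cells (y axis), both in arbitrary units on log scales, with all 11484 genes in grey and the 95 members coloured by role. The solid line marks equal values, the dashed lines 2-fold and the dotted lines the 25th percentiles; the members farthest under the diagonal, such as Cd248, Cd109 and Cd47, are adhesion and stromal antigens.

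By role, counts are over the members that passed the floor, to be read against the 20.8% lower and 20.5% higher of all genes. All 4 genes of the tetraspanin set, which leaves out Cd37, were lower. Of 14 adhesion and stromal or endothelial antigens 13 passed the floor, and 9 of them (69.2%) were lower and none was higher. Outside the tetraspanins, adhesion antigens and complement regulators 44 members passed the floor, with 8 lower and 8 higher (18.2% each). Their median log2 difference was 0.17. Of the T and NK cell antigens 7 of 10 passed, with 1 higher (14.3%) and none lower, and of the B cell set 6 of 8, with 2 each way (33.3%). Of 16 myeloid antigens 9 passed, with 4 lower (44.4%) and 1 higher (11.1%). Of the C-type lectins 7 of 10 passed, with 1 each way (14.3%). All 3 Siglecs passed, with 1 lower (33.3%), and 3 of the 6 MS4A genes, with 1 higher (33.3%). Of the Ly6 genes 5 of 12 passed, with 1 higher (20%), and of the NK cell lectin-like receptors 3 of 10, with none at 2-fold. With 3 to 9 genes in most sets, a single gene moves these shares widely.

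**Figure D2:**
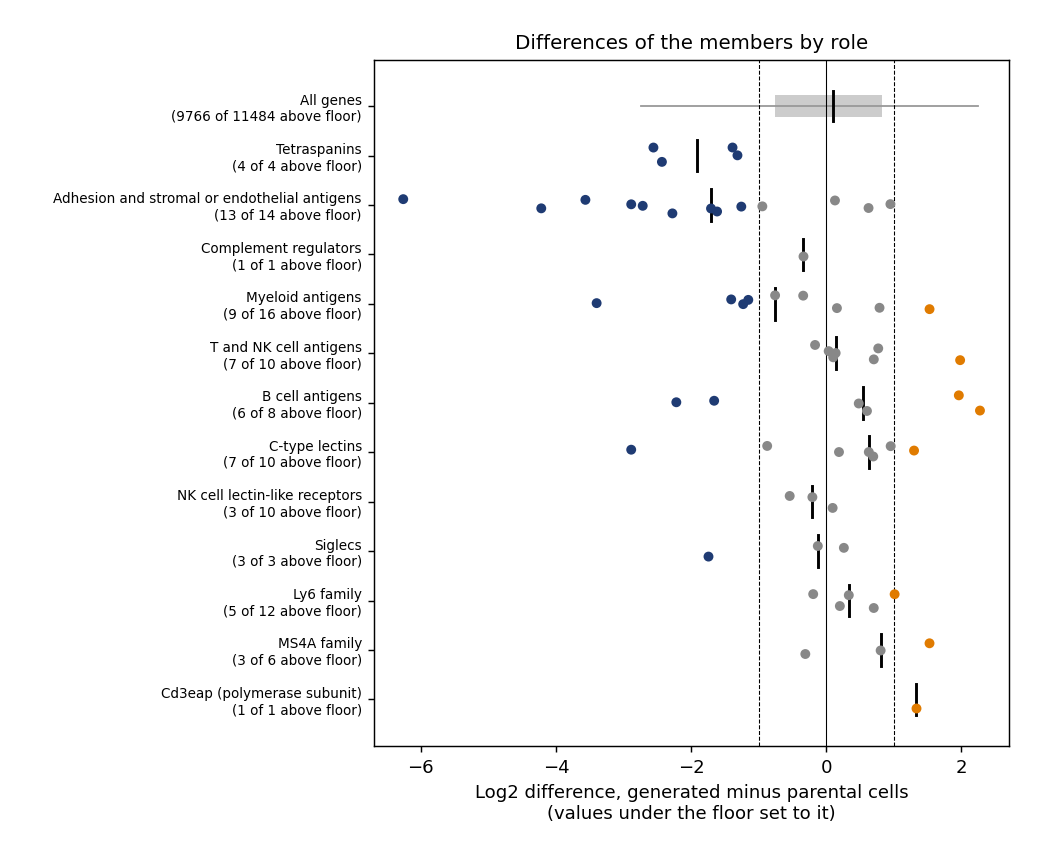
Log2 difference of each member above the floor in at least 1 sample, generated minus parental cells (x axis), by role (rows), a value under the floor being replaced by the floor. Points are genes, blue at 2-fold or more lower and orange at 2-fold or more higher, black ticks are medians, and for all genes the bar spans the quartiles and the line the 5th to 95th percentiles; the median was -1.91 for the 4 tetraspanins and -1.71 for the 13 adhesion and stromal antigens, left of the 0.10 of all genes.

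Tetraspanins span the membrane 4 times and gather integrins and other partners into patches. Cd9, which is borne by ES cells and by many other cells, was at 2361 in the parental and 401 in the generated cells, 5.89-fold lower. Cd82, a partner of integrins that restrains cell migration, was at 504 and 51.0, at least 5.40-fold lower. Both lay past 4-fold. Cd63, a marker of late endosomes and exosomes, was at 48109 and 18389, 2.62-fold lower, and both of its values exceeded the 75th percentile. Cd151, which binds laminin-receptor integrins, was at 4953 and 1991, 2.49-fold lower, and was likewise above the 75th percentile in both. Another tetraspanin among the members, Cd37, is restricted to B cells and other leukocytes and is given with the B cell antigens, and it was higher in the generated cells. The letters before the start of Cd9 are given because this lower member has a promoter rich in CpG dinucleotides. The window holds the 250 bases before the start of the gene, chr6:125494761-125495010 on the minus strand of GRCm38.p6 (RefSeq), with capitals for matches on either strand to GGGCGG (the GC box), TATAAA (the TATA box) and GAGGAA (the core bound by PU.1 and other ETS factors).
Cd9 promoter: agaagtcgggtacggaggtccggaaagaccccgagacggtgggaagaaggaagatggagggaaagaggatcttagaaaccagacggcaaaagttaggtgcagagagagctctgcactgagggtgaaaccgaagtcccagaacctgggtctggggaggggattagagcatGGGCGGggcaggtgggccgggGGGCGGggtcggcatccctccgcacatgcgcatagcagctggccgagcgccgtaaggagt
It held 16 CpG dinucleotides at a GC content of 61.6%, with 2 GC boxes and no match to the other motifs.

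Other tetraspanin genes, from a list of 24 of which 13 were measured, ran the same way in part. Of the 12 above the floor, 6 (50%) were lower and 1 (8.33%) was higher, beside 20.8% and 20.5% of all genes. In this list 1 further gene was dim. Their median was -1.05 on the log2 scale. Tspan6 was at 2486 and 77.8, at least 26.6-fold lower, and Tspan3 at 7100.4 and 1676.5, 4.24-fold lower. The uroplakin genes, tetraspanins of the bladder lining, went in opposite directions, with Upk1b at 1539.8 and 33.7 (at least 16.5-fold lower) and Upk1a at 30.8 and 483 (at least 5.15-fold higher).

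The widest differences among the members were in the adhesion and stromal antigens. Cd248, which encodes endosialin, a surface glycoprotein of fibroblasts and pericytes, read 11554 in the parental and 151 in the generated cells, 76.7-fold lower. Cd109, an anchored protein that binds TGF-beta, was at 1739 and 61.2, at least 18.6-fold lower. Cd47, the "don't eat me" ligand that restrains phagocytes, was at 1646 and 139, 11.8-fold lower. Each of these 3 was above the 75th percentile in the parental cells and under the median of 305 in the generated cells. Cd34, a sialomucin of blood progenitors, endothelium and fibroblasts, was at 779.8 and 105, 7.40-fold lower. Cd99l2, a relative of CD99 in leukocyte adhesion, was at 2371 and 361, 6.57-fold lower, and Cd276, the B7-H3 molecule of the B7 family of T cell regulators, at 2549 and 526, 4.85-fold lower.

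Smaller differences were seen in 3 further antigens of the set. Cd99, an adhesion molecule used by leukocytes to cross endothelium, was at 8339 and 2556, 3.26-fold lower. Fcgrt, which encodes the receptor that recycles immunoglobulin G, was at 2399 and 782, 3.07-fold lower. Cd24a, a small mucin-like antigen of immature and epithelial cells, was at 4466 and 1868, 2.39-fold lower, and like Cd99 it was above the 75th percentile in both samples. Cd164, a sialomucin, was at 16764 and 8700.0, 1.93-fold lower and just short of the 2-fold rule, and it passed the rule after intensity-dependent centring. Cd320, the receptor for transcobalamin-bound vitamin B12, was at 1683 and 1839.7, a 1.09-fold difference. Cd36, a scavenger receptor for fatty acids and lipoproteins, was at 374 and 577 (1.54-fold higher), and Cd274, the PD-L1 ligand, at 145 and 279.9 (1.93-fold higher). Pecam1, an adhesion molecule of endothelium that is also borne by mouse ES cells, was dim at 48.9 and 79.8. Cd59a, the only complement regulator measured, was at 684 and 539, 1.27-fold lower. The promoter of Cd276 is shown as the member window with the most GC among the lower adhesion antigens with an entry (chr9:58555034-58555283, minus strand, GRCm38.p6).
Cd276 promoter: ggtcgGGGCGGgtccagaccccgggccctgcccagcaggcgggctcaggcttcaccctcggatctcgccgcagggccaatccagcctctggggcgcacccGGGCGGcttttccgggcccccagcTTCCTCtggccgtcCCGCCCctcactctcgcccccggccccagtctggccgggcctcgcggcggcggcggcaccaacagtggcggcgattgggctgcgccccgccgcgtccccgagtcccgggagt
Its GC content was 77.6% with 29 CpG dinucleotides, and it held 3 GC boxes and 1 GAGGAA match.

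**Figure D3:**
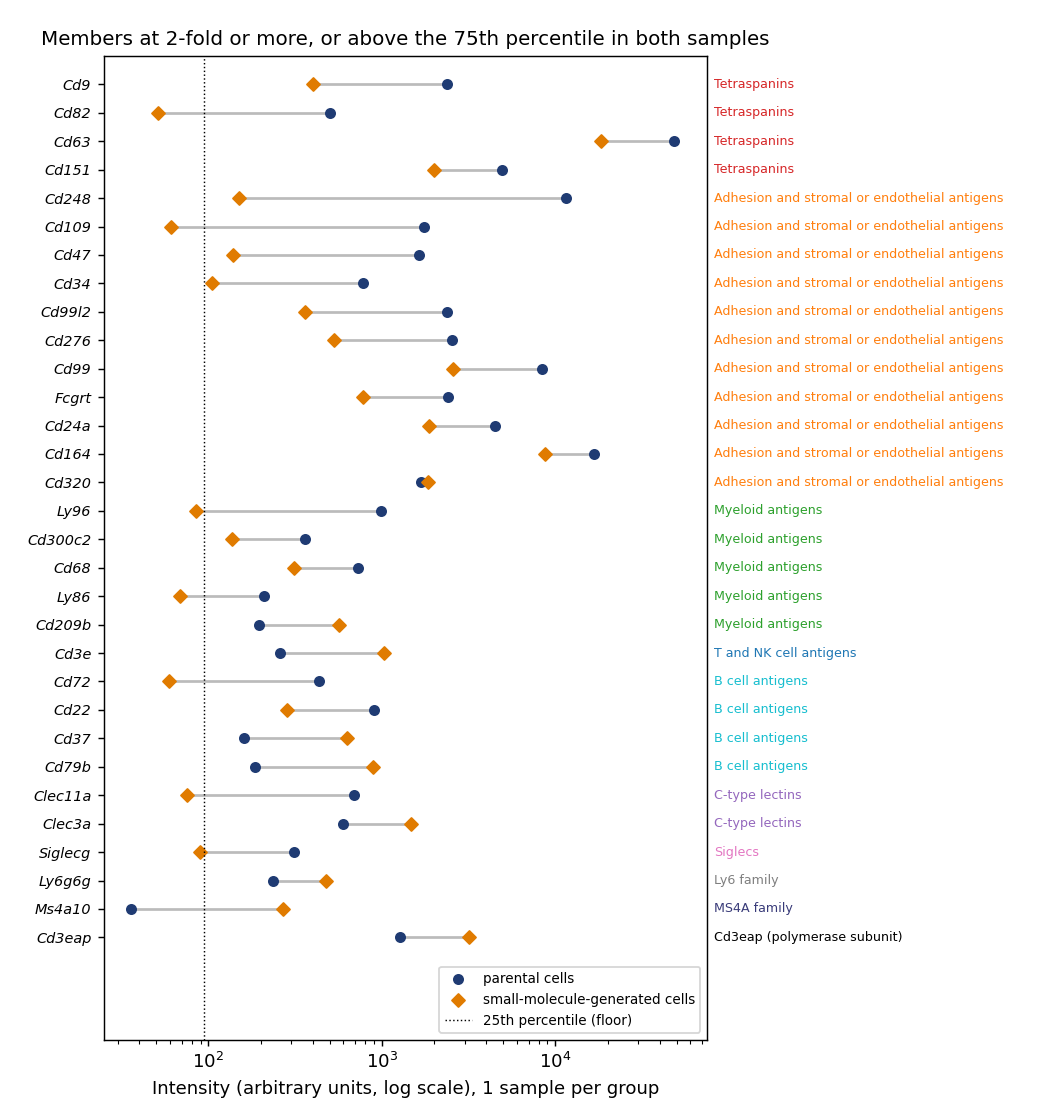
Intensity in arbitrary units (x axis, log scale) of the 31 members that differed by 2-fold or more or exceeded the 75th percentile in both samples (rows, grouped by role at the right). Circles are the parental cells, diamonds the small-molecule-generated cells, with 1 sample each, and the dotted line is the floor; each of the 4 genes marked as tetraspanins has its diamond left of its circle, while Cd3e, Cd37 and Cd79b have it to the right.

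Markers of mesenchyme and of macrophages were mostly lower in the generated cells, while endothelial markers were mixed. The lists held 16 fibroblast, 14 endothelial, 12 blood progenitor, 13 pluripotency and 16 macrophage genes, and only those measured are counted. Over all genes above the floor 20.8% were lower and 20.5% higher. All 4 measured fibroblast and mesenchyme markers were lower, with summed intensities of 135213 in the parental and 979.3 in the generated cells, and Thy1 was at 40943 and 117. Endothelial markers went both ways, with 4 of the 10 above the floor higher, 2 lower and a median of 0.70. Vwf (36.7 and 661), Egfl7 (873 and 4372), Tie1 and Cldn5 were higher, and Plvap (17942 and 2798) and Flt1 (691 and 63.8) were lower. Of 6 measured markers of blood progenitors and mast cells 3 were dim, Kit was higher (98.0 and 737) and Runx1 lower (814 and 108). Of 10 pluripotency markers 9 were higher, with sums of 891 and 131208. The marker not counted was Nanog, at 77.7 and 94.7, near the floor in the generated cells. Pou5f1 was at 37.8 and 639, at least 6.82-fold higher. Of 6 macrophage markers 5 were lower, with sums of 6276 and 473, and in the generated cells 5 of the 6 were under the floor. In bulk samples, fewer cells of a type and less RNA per cell cannot be told apart, and the part of these cell types in the members' values was not tested.

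Among the 16 myeloid antigens 7 were dim in both samples, 4 were lower and 1 was higher. Ly96, which encodes MD-2, the partner of TLR4 in sensing lipopolysaccharide, was at 985 and 85.2, at least 10.5-fold lower. Its relative Ly86, which encodes MD-1, was at 208 and 68.7, at least 2.23-fold lower. Cd68, the macrosialin of macrophage lysosomes, was at 728 and 310.4, 2.35-fold lower, and Cd300c2, a receptor of the CD300 family on myeloid cells, at 362.5 and 137, 2.65-fold lower. Ly86 was no longer counted as lower with an offset of 50 or with the floor at the median, Cd300c2 with the floor at the median, and neither Ly86 nor Cd68 when probe classes were centred separately. Of the 6 measured macrophage markers 5 (83.3%) were lower, against 20.8% of all genes. They included C1qa (3198 and 35.7) and Fcer1g (1894 and 206), while Itgam (134 and 75.8) stayed under 2-fold. Whether macrophages gave the values of the 4 lower myeloid antigens was not tested. Cd209b, which encodes the SIGN-R1 lectin of macrophages, was at 196 and 564, 2.88-fold higher. Cd84, an adhesion receptor of the SLAM family, was at 158 and 43.4, and the costimulatory ligand gene Cd86 at 118 and 43.4. For both the generated value was under the floor, so they were at least 1.69-fold and at least 1.27-fold lower, and both counted as lower with values as deposited. Cd33, a Siglec of myeloid cells, stood exactly at the parental floor (93.8) and read 162 in the generated cells. Cd209d was at 199 and 222. The dim ones were Cd163l1, Cd200r3, Cd207, Cd209e, Cd300c, Cd300ld and Cd300lg, which read from 38.8 to 69.9 in the parental and from 39.7 to 81.2 in the generated cells.

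Some chains of the antigen receptors were brighter in the generated cells. Cd3e, the epsilon chain of the T cell receptor complex, was at 259 in the parental and 1022 in the generated cells, 3.95-fold higher. Cd79b, the beta chain of the B cell receptor's signalling pair, was at 184 and 891.5, 4.84-fold higher, and was the single member past 4-fold in that direction. Cd37, the leukocyte tetraspanin, was at 161 and 627, 3.89-fold higher. Their direct partners were not counted as higher. Cd3d, the delta chain and a neighbour of Cd3e in the genome, was at 32.7 and 103, at least 1.10-fold higher, and its size is not known since the parental value lay under the floor. It counted as higher with the floor at the 10th percentile, with no floor and with values as deposited. Cd79a, the alpha chain paired with Cd79b, was at 279 and 389.7, 1.39-fold higher. The coreceptor gene Cd8a was dim at 55.9 and 62.3, and Cd8b1 was at 55.9 and 96.1. Each of these genes was read by 1 probe.

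The remaining T and NK cell antigens were close in both samples. Ly9, a SLAM-family receptor, was at 454 and 773 (1.70-fold higher), Cd2, an adhesion receptor of T cells, at 123 and 199.5 (1.63-fold higher), and Cd160, an NK cell receptor, at 114 and 122. Cd27, a costimulatory receptor of the TNF receptor family, was read by 3 probes at 204 and 121, 70.8 and 94.2, and 81.7 and 73.4, of which the first was above the floor in both samples. Cd226 and the CD40 ligand gene Cd40lg were dim. In the B cell set, Cd72, a lectin-like inhibitory coreceptor, was at 435 and 59.0, at least 4.66-fold lower, and Cd22, an inhibitory Siglec, at 898 and 284, 3.16-fold lower. Cd40, a costimulatory receptor, was at 193 and 293 (1.52-fold higher). Cd70 was dim, and so was Cd5l, which is listed in this set although it is not a B cell surface antigen. The inhibitory coreceptor genes and the chain Cd79b thus stood on opposite sides.

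The window before Cd3e is given as that of a lymphocyte gene that was higher (chr9:45009612-45009861, minus strand, GRCm38.p6).
Cd3e promoter: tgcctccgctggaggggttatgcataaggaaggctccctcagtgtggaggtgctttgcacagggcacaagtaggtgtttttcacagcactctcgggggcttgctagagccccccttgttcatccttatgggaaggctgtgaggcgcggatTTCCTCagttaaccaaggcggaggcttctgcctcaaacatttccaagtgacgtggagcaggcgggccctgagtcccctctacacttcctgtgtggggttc
It held 7 CpG dinucleotides at a GC content of 57.2%, 1 GAGGAA match, and neither a GC box nor a TATA box as spelled above.

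Genes that act beneath these receptors also went both ways. Of 14 measured adaptors and kinases of leukocyte receptors, from a list of 28, 3 were dim (21.4%, against 15.0% of all genes). Of the 11 above the floor, 5 (45.5%) were higher and 2 (18.2%) lower, beside 20.5% and 20.8% of all genes, with a median of 0.26. Plcg2, a phospholipase downstream of immune receptors, was at 447 and 6571, 14.7-fold higher. Inpp5d, the SHIP1 phosphatase, was at 152 and 1139.9 (7.49-fold higher), Zap70, the kinase of the T cell receptor, at 74.7 and 545 (at least 5.81-fold higher), and Lat, a scaffold of the same pathway, at 153 and 648 (4.24-fold higher). The lower genes were Fcer1g, the shared gamma chain of Fc receptors, 9.17-fold lower, and the adaptor gene Lat2, at 262 and 86.0, at least 2.80-fold lower. Ptprc, which encodes CD45, the defining surface phosphatase of nucleated blood cells, was at 165 and 118, both under the median of the column. Of 8 measured lymphocyte markers, from a list of 18, 3 were higher, namely Cd3e, Cd79b and Zap70. None was lower, and 2, Cd8a and Pax5, were dim. The summed intensity of these markers was 1115 in the parental and 3197 in the generated cells. The list is not separate from the genes above. Cd3d, Cd3e, Cd79a, Cd79b and Cd8a are members themselves, and Zap70 and Ptprc are also counted among the adaptors and kinases. The rise of the sum thus includes the members Cd3e and Cd79b. Whether lymphocytes or other cells gave this signal was not tested.

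**Figure D4:**
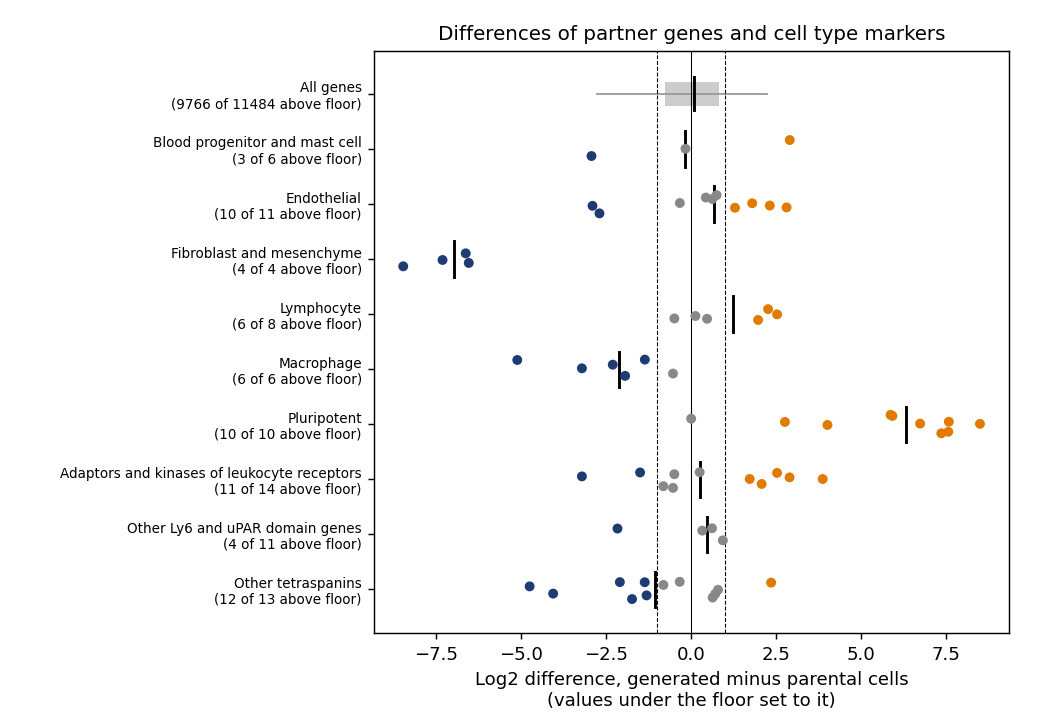
Log2 difference of genes in lists of cell type markers, receptor partners and related families, generated minus parental cells (x axis), a value under the floor being replaced by the floor. Points, colours and ticks are as in the plot of differences by role; fibroblast and macrophage markers lie left of 0, pluripotency markers except Nanog lie far right, and adaptors of leukocyte receptors lie on both sides.

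The C-type lectins, NK cell lectin-like receptors and Siglecs together had 10 of 23 genes dim in both samples (43.5%, against 15.0% of all genes). Clec11a, which encodes a secreted growth factor of bone and blood progenitors, was the only C-type lectin lower by 2-fold, and its 2 probes read the same direction, 1385 and 102 (13.6-fold lower) and 345 and 55.9 (at least 3.69-fold lower). Averaged, the gene was at 691 and 75.3, at least 7.40-fold lower. Clec3a, a secreted cartilage lectin, was at 596 and 1465, 2.46-fold higher. Clec4e, the Mincle receptor for mycobacterial glycolipid, was at 216 and 418, 1.94-fold higher and just short of the rule. Clec3b, which encodes tetranectin (203 and 329), Clec4g (175 and 270.3), Clec4f (164 and 187) and Clec16a (294 and 160.4) differed by less than 2-fold, and Clec10a, Clec2e and Clec4a3 were dim. Siglecg, an inhibitory Siglec of B cells, was at 313 and 89.8, at least 3.35-fold lower, while Siglec1, the sialoadhesin of macrophages, was at 193 and 231 and Siglece at 120.0 and 110.0.

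No NK cell lectin-like receptor was counted at 2-fold, and 7 of the 10 were dim in both samples. The 3 that passed the floor were Klra8 (108 and 63.1), Klrg1 (103 and 109) and Klrg2 (139.9 and 96.1). Klra17, Klra2, Klrb1a, Klrb1f, Klrc2, Klri1 and Klrk1, the last encoding the activating receptor NKG2D, read from 36.7 to 79.7 in the parental and from 34.4 to 72.8 in the generated cells. Klrk1, Klrc2, Klri1, Klra17 and Klra8 follow each other in the gene order of GRCm38.p6 with at most 5 coding genes between neighbours, and 4 of these 5 were dim. The promoter window of Klrk1 is shown as that of a dim member (chr6:129623865-129624114, minus strand, GRCm38.p6).
Klrk1 promoter: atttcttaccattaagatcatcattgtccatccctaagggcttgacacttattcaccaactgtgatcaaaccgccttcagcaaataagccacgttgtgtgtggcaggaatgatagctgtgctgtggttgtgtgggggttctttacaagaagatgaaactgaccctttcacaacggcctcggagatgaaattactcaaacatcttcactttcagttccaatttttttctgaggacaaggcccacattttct
It held 4 CpG dinucleotides at a GC content of 42.8% and no match to any of the 3 motifs.

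The Ly6 genes encode small proteins of the 3-finger fold, most of them anchored to the membrane by a lipid. Of 12 measured, 7 were dim, and the single gene past the rule, Ly6g6g, lay barely past it at 236 and 476, 2.02-fold higher. It fell short of 2-fold with an offset of 50 and after intensity-dependent centring. Ly6g6c was at 227 and 369.9, Ly6d at 108.5 and 137, Ly6g5c at 54.9 and 108, and Ly6i at 107 and 64.4. Ly6k (23.6 and 82.8) and Ly6g6d (15.0 and 66.6) were dim in both samples, as were Ly6a2, Ly6g2, Ly6g5b, Ly6g6f and Ly6m. Other genes of the Ly6 and uPAR domain family were likewise dim in 7 of 11 cases (63.6%, against 15.0% of all genes). Lynx1, a modulator of nicotinic receptors, was lower at 811 and 182, 4.45-fold. Of the 6 MS4A genes, which encode proteins that span the membrane 4 times, Ms4a10 was at 35.6 and 270.3, at least 2.88-fold higher. Ms4a18 was at 259 and 452 (1.75-fold higher) and Ms4a8a at 133 and 107, and Ms4a15, Ms4a20 and both probes of Ms4a6c were dim. Near-identical copies occur in the Klra, Ly6, Cd209 and Cd300 families, and the probe sequences were not analysed here, so a value in these families may include signal from a copy.

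Cd3eap, the polymerase I subunit, was at 1266 and 3177, 2.51-fold higher, with both probes at 2-fold or more (1104 and 2854, 1451 and 3535). Without it the members had 7 higher and 21 lower.

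The promoters of the members were described as well, without a test. A RefSeq entry was found for 67 of the 95 members and for 9162 of all genes. A promoter was called CpG-rich where the 250 bases before the start held a CpG ratio, observed over expected, of at least 0.6 and a GC content of at least 50%, in any entry of the gene. By that rule 10 of 67 members (14.9%) were CpG-rich, against 58.1% of all genes. The share was 31.2% among the lower members (5 of 16) and 0 of 23 among the dim members, where it was 67.6% and 29.9% of all genes with the same call. GC boxes were present in 26.9% of members and 58.0% of all genes, and the PU.1 core in 55.2% and 25.5%, with the TATA box in 8.96% and 9.78%. Over all 32851 entries the shares were 32.7%, 23.3% and 12.4%. The match to GAGGAA was found in 8 of 16 lower, 2 of 5 higher and 14 of 23 dim members. These are counts of letters, and the windows were not read for binding.

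**Figure D5:**
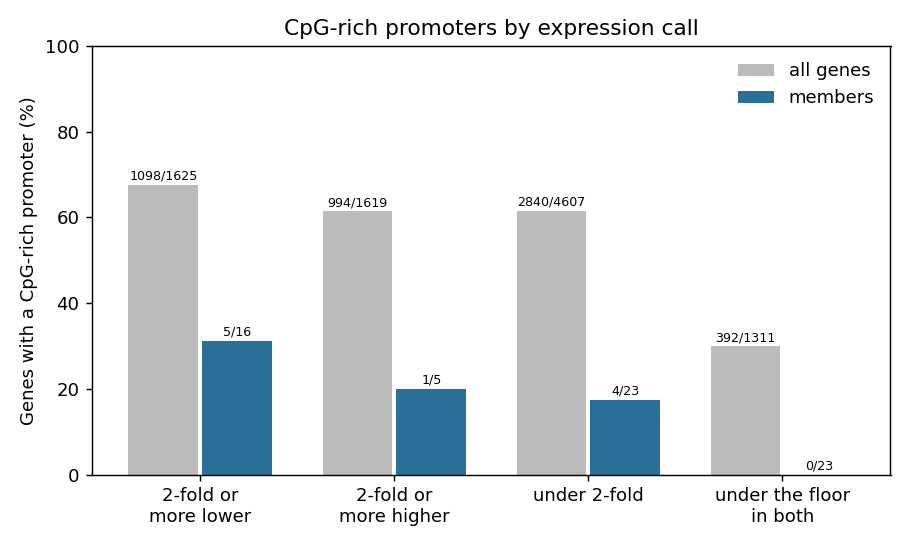
Percentage of genes with a CpG-rich promoter (y axis, from 0) by the size and direction of the difference (x axis), for all genes (grey) and the members (blue), with the number of genes above each bar. In each class the members' bar is shorter than that of all genes, and none of the 23 dim members with an entry had a CpG-rich promoter.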

How the data were processed

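Total RNA, extracted with Trizol and cleaned on RNeasy columns, was amplified, coupled to Cy5 and hybridised to a Phalanx mouse whole genome array, per the labels' protocols. The authors deposited a normalised intensity for each probe, on a linear scale. For the scanner, background correction and normalisation the sources used here give nothing. Both columns have nearly equal quantiles, so a shift of total signal between samples cannot be seen. Symbols came from the platform annotation and were identical for every member to those of RefSeq (GRCm38.p6). Probes were averaged per gene on the log2 scale (Python 3.11.15, pandas 2.3.3, numpy 2.4.6). Of 13989 probes 1609 carried no symbol and were left out.

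Samples were grouped by their titles, 1 per group. Counts by size replaced tests, with the floor and the 2-fold rule given above. Every member at 2-fold or more, or above the 75th percentile in both samples, was named with its values, and the others by value, range or count. The members and all gene lists were chosen with earlier results of these data known. Of the members, 7 fell in no list and were placed by symbol stem afterwards. Alternatives were median, quantile and lowess centring (span 0.3, statsmodels 0.14.6), the brightest probe, probes counted singly, an offset of 50, other floors, values under the floor as deposited, only genes above it in both samples, and a 4-fold rule. Chosen after seeing the data were centring 3 classes of probe identifiers separately, leaving out Cd3eap, and counting tetraspanins and adhesion antigens apart. The computation was tested on simulated data.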

Additional observations from a re-analysis of the deposited data

How the results depend on the processing

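With 1 sample per group no replicate could be left out. No paired analysis was possible because each group has 1 sample and no test was run, although both titles carry the replicate number 1. The 21 lower members became 11 under the 4-fold rule and ranged from 14 to 23 under the other alternatives, and the 8 higher members became 1 under the 4-fold rule, 5 with the floor at the median and between 7 and 11 otherwise. The lower tetraspanins numbered 2 instead of 4 under the 4-fold rule and 3 with the floor at the median or with the genes limited to those over the floor in both samples. With the floor at the median the calls of Cd82, Cd72, Siglecg, Cd300c2, Ly86, Cd209b, Ly6g6g and Ms4a10 were lost. The lower adhesion antigens stayed between 6 and 10 under all alternatives run. The median log2 difference of the members, -0.15, turned to 0.049 with the floor at the 10th percentile and was -0.51 with the floor at the median. It was 0.033 with no floor, where all genes gave 0.075. When both samples had to be over the floor it was 0.12, beside 0.13 for all genes, so there the members did not lie under the array. Of 331 values of the 31 named members under alternatives, 320 moved by less than the probe error of 1.05, 11 moved by more and 0 changed sign from a called difference. Those 11 were changes of floor, 9 of them in lower members with the floor at the median. Members that dropped out under an alternative are not among the 331. A lower floor or the brightest probe could not move a member with 1 probe and both values above the floor. Such agreement was fixed beforehand. A value that moved by less than 1.05 could still lose its call, as Cd209b did at 0.89 with the floor at the median. A floor sets how much of a difference can be seen in a gene with low signal, and 16 members were above it in only 1 sample.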
